A study of Mus musculus with 6 samples.

Results

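Laminins, nidogens, perlecan and agrin build the sheet of matrix beneath endothelium, around mural cells and under astrocyte endfeet, and integrins are the receptors that hold cells to it. The genes described here are 33 protein-coding genes of the 56748 in the deposited count table. They were chosen by name, though with earlier results of these data known. They are the numbered laminin α, β and γ chain genes, the numbered integrin α and β subunit genes, and Nid1, Nid2, Hspg2 and Agrn. Letter-named integrin subunits and 1 numbered β subunit lay outside that choice. Of the 33 genes, 32 passed the filter on low counts, as did 17584 genes in all. Itgb6, the epithelial partner of the αv subunit, did not: it had 0, 0 and 5 reads in PLEA replicates 1 to 3 and 0, 0 and 1 in saline replicates 1 to 3.

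RNA was sequenced from 6 libraries, 3 labelled PLEA and 3 labelled saline, all from male wild-type C57 mice with a photothrombotic stroke of the left hemisphere, in which a laser clots cortical vessels after an injected agent, here 100 mg/kg of one the labels do not name. PLEA nanoparticles or saline were given into the tail vein 2 hours after the lesion, and all tissue carries the label day 3. No unlesioned or untreated tissue was analysed here, so both groups share the stroke. The series text calls the tissue infarcted cortex, the sample labels say brain, and neither gives the age of the mice or says whether each library is 1 animal, so p-values measure the spread between libraries, which may be technical. Library totals ran from 16810448 to 17516434 counts.

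Basement membrane laminins are trimers of an α, a β and a γ chain that polymerise on the cell surface. Nidogens tie the laminin network to type IV collagen, and the heparan sulfate proteoglycans perlecan and agrin join both. In brain vessels the chains α4 and α5 are made by endothelium, while α1 and α2 mark the outer, parenchymal sheet made by astrocytes and mural or pial cells. Cells bind laminin through the integrin subunits α3, α6 and α7 and through dystroglycan, and loss of this sheet is a known feature of damaged vessels after stroke.

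No member passed the test between PLEA and saline, and neither did any other gene (0 of 17584, or 0.0%, higher and 0.0% lower at an adjusted p under 0.05; edgeR's quasi-likelihood test with Benjamini-Hochberg adjustment). At an unadjusted p under 0.05 there were 401 genes higher and 630 lower. DESeq2 called 4 genes higher (0.0258%) and 37 lower (0.238%), with no member among them, and limma voom called 0 and 0. The lowest adjusted p of a member in edgeR was 0.818. Before adjustment, 4 of the 32 tested members had p under 0.05 and a negative log2 fold change (12.5%), against 3.58% of all tested genes and 3.93% of the protein-coding ones. The 4 were Itga4, Nid1, Itgb4 and Lama4. No member had p under 0.05 with a positive fold change, against 2.28% of all genes. In DESeq2 the counts were 6 lower (3.84% of all genes) and 0 higher (1.86%).

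That count of 4 depended on single libraries. It was 9 without saline replicate 2 (4.56% of all genes) and 8 without saline replicate 3 (4.93%), but 2 without saline replicate 1 (3.3%). Leaving out PLEA replicate 3 gave 2 (1.72%), and leaving out PLEA replicate 2 gave 1 (1.89%). Without saline replicate 1, Itga2 and Itga8 also had p under 0.05 with a positive value (2.62% of all genes).

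In 22 of the 32 tested members the log2 fold change of PLEA over saline was negative (68.8%), against 51.0% of all tested genes and 53.5% of the protein-coding ones. Its median was -0.33 over the members and -0.01 over all tested genes. Without saline replicate 1 the members' median was -0.14 and that of all genes was 0.01. The 3 PLEA libraries lay wholly below the 3 saline libraries for Itga4, Itgb4, Lama4 and Lama2 (12.5% of members), against 5.54% of all tested genes and 5.91% of the protein-coding ones, and for no member wholly above, against 5.16%. With fewer libraries separation is easier by construction, and the count of 4 was 10 without saline replicate 2 (10.8% of all genes) and 7 without saline replicate 3 (11.7%). It was 9 without PLEA replicate 1 (13.7%) and 9 without PLEA replicate 3 (8.09%). Without saline replicate 1 it was 6 (9.6%), and without PLEA replicate 2 it stayed at 4 (9.01%).

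**Figure D1:**
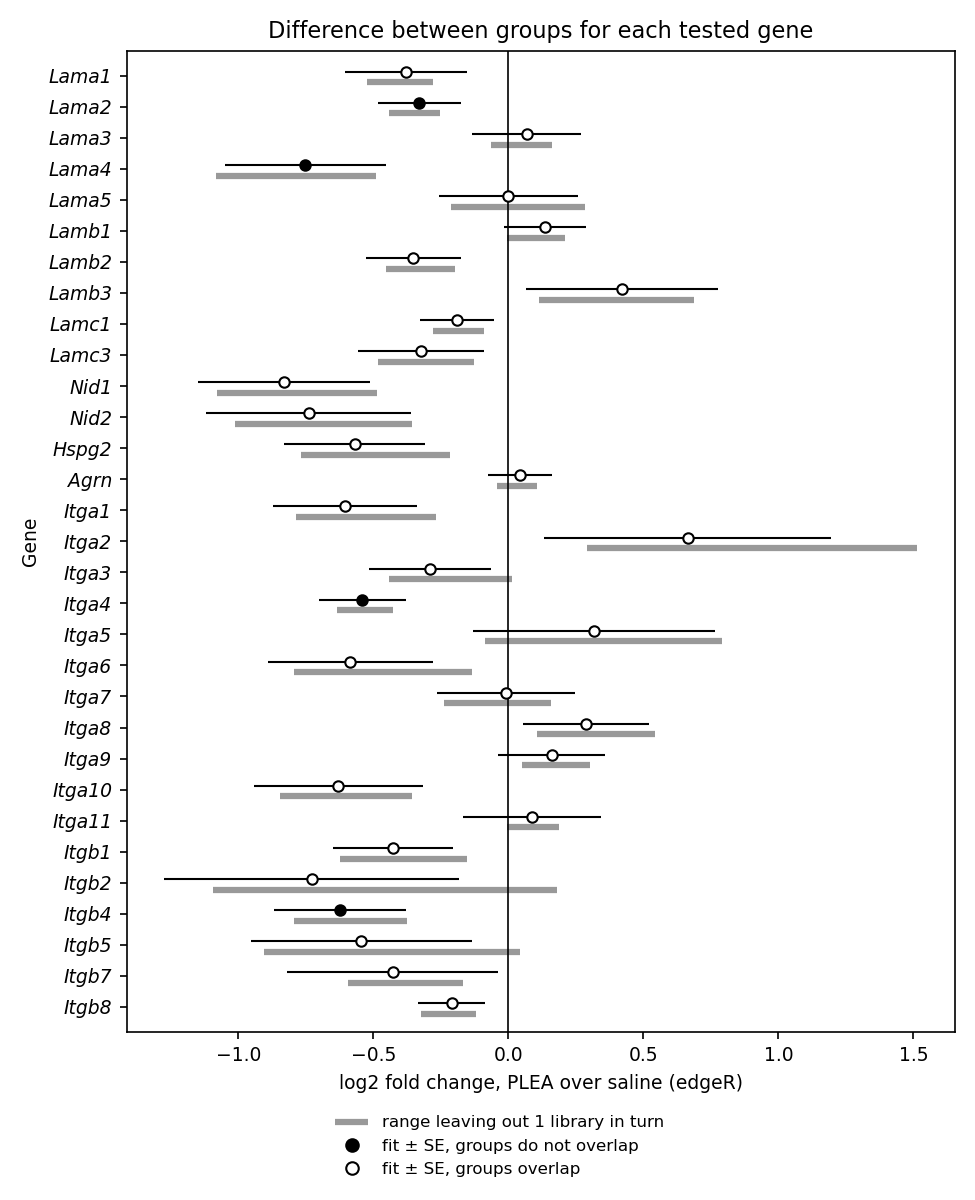
Log2 fold change of PLEA over saline for 31 of the 32 tested genes (x axis), with genes listed down the page by family. Circles and thin lines are the edgeR fit ± SE, filled where the 3 PLEA and 3 saline libraries do not overlap (Itga4, Itgb4, Lama4 and Lama2), and grey bars span the 6 fits that each leave out 1 library. Most circles lie left of 0, and the grey bars of Itgb2 and Itgb5 are among those that cross it.

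Saline replicate 1 was the highest of the 6 libraries for 17 of the 32 tested members (53.1%) and PLEA replicate 2 the lowest for 19 (59.4%). Over all tested genes saline replicate 1 was the highest library for 21.3% and PLEA replicate 2 the lowest for 19.1%. Saline replicate 2 was highest for another 6 members, among them Itga3, Itga4, Itga10, Itgb4 and Itgb7.

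**Figure D2:**
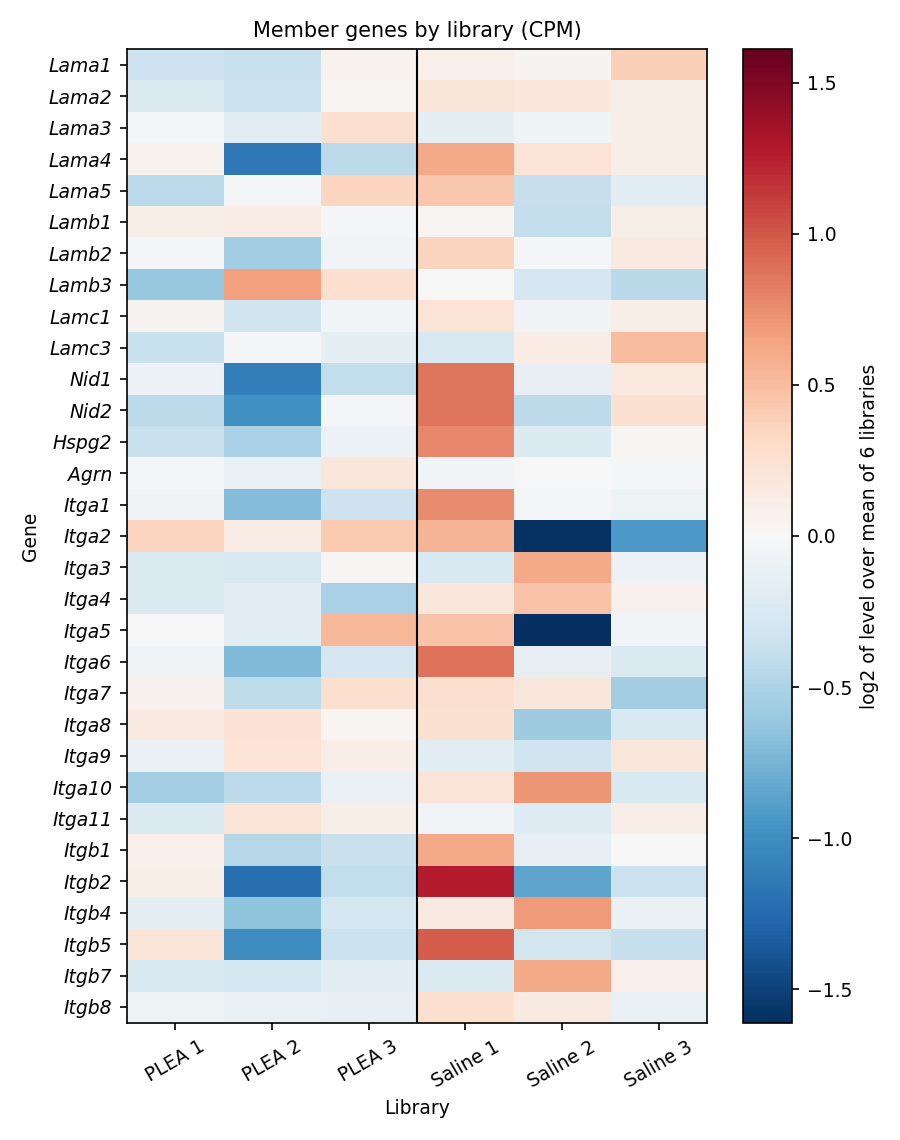
Level of 31 of the 32 tested members (rows) in each library (columns, PLEA replicates 1 to 3 and then saline replicates 1 to 3), as log2 of its CPM over the gene's mean across the 6 libraries. Red marks high and blue low values. The saline 1 column is mostly red and the PLEA 2 column mostly blue, while Agrn stays near 0 in every library.

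Summed markers of several cell types that make or carry these proteins were highest in the same library. Summed microglia and macrophage markers (9 of 9 measured, none at 0) were at 316, 105 and 193 CPM in PLEA and 613, 195 and 259 CPM in saline. Astrocyte markers (8 of 8) ranged from 1307 to 1957 CPM in PLEA and from 1966 to 4069 CPM in saline, endothelial markers (8 of 8) from 227 to 276 CPM in PLEA and from 247 to 384 CPM in saline. Mural markers (8 of 8) ranged from 151 to 182 CPM in PLEA and from 190 to 311 CPM in saline. In each of these 4 sums saline replicate 1 was the highest library. Gfap alone gave 1683 CPM of the astrocyte sum there, and Rgs5 gave 189 CPM of the mural sum. Most single genes were also highest there, but not all. Ly6c1 (endothelial, 36.0 CPM) and Myh11 (mural, 33.9 CPM) were highest in PLEA replicate 2. Slco1a4 (endothelial) was highest in PLEA replicate 3, Kcnj10 (astrocyte) in saline replicate 2 and Acta2 (mural) in saline replicate 3.

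Meningeal and perivascular fibroblast markers (10 of 10) ranged from 117 to 128 CPM in PLEA and from 174 to 225 CPM in saline, so those sums did not overlap. The astrocyte and mural sums given above did not overlap either, by narrower margins. Much of each fibroblast sum was Pdgfra, at 59.2 to 67.2 CPM in PLEA and 61.2 to 66.6 CPM in saline (log2 fold change -0.04). Of the 10 fibroblast markers, 8 lay wholly lower in PLEA, against 5.54% of all tested genes. Oligodendrocyte markers (6 of 6) were highest in saline replicate 2, at 5244 CPM, against 2650 to 3749 CPM in the other libraries. Striatal neuron markers (8 of 8) were at 161 CPM in saline replicate 2 and between 706 and 1688 CPM elsewhere. Choroid plexus markers (6 of 6) summed to 334 CPM in PLEA replicate 3, of which Ttr alone was 280.6 CPM, and to between 7.1 and 38.3 CPM elsewhere. The other markers in that list did not all follow Ttr. Otx2 was highest in saline replicate 2, at 17.8 CPM, and Clic6 was at 23.6 CPM in PLEA replicate 2 and 27.2 CPM in PLEA replicate 3. Neutrophil markers summed to at most 23.2 CPM, platelet markers to at most 6.96 CPM, red cell markers to at most 3.26 CPM and T and B cell markers to at most 1.62 CPM, with Ms4a1 and Gp1bb at 0 in every library. Fewer cells of a type and less RNA per cell cannot be told apart in bulk tissue, and the part of cell composition in the members' differences was not tested.

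**Figure D3:**
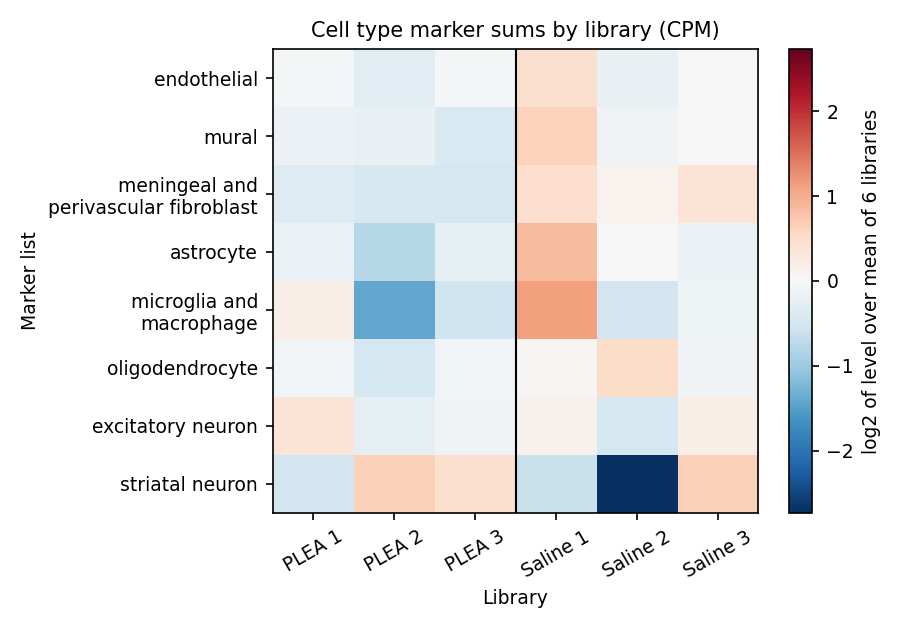
Summed CPM of 8 cell type marker lists (rows) in each library (columns), as log2 over the list's mean across the 6 libraries. Saline 1 is high for endothelial, mural, astrocyte and microglial markers, PLEA 2 is low for microglial and astrocyte markers, and striatal markers stand low in saline 2.

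Levels of different genes are compared here as CPM per kilobase of the deposited gene length. Agrn was the highest member at 23.7, averaged over the 6 libraries, followed by Itgb1 at 21.6, Itgb5 at 12.1 and Itgb8 at 8.42 CPM per kilobase. The ranges of these neighbours overlapped, and the next break was between Itgb8 and Lamc1, at 5.80. From Lamc1 down to Itgb7, at 0.273, each gene's range over libraries overlapped that of the next. Itga2, at 0.147, and Itgb6, at 0.00799, lay apart at the foot.

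**Figure D4:**
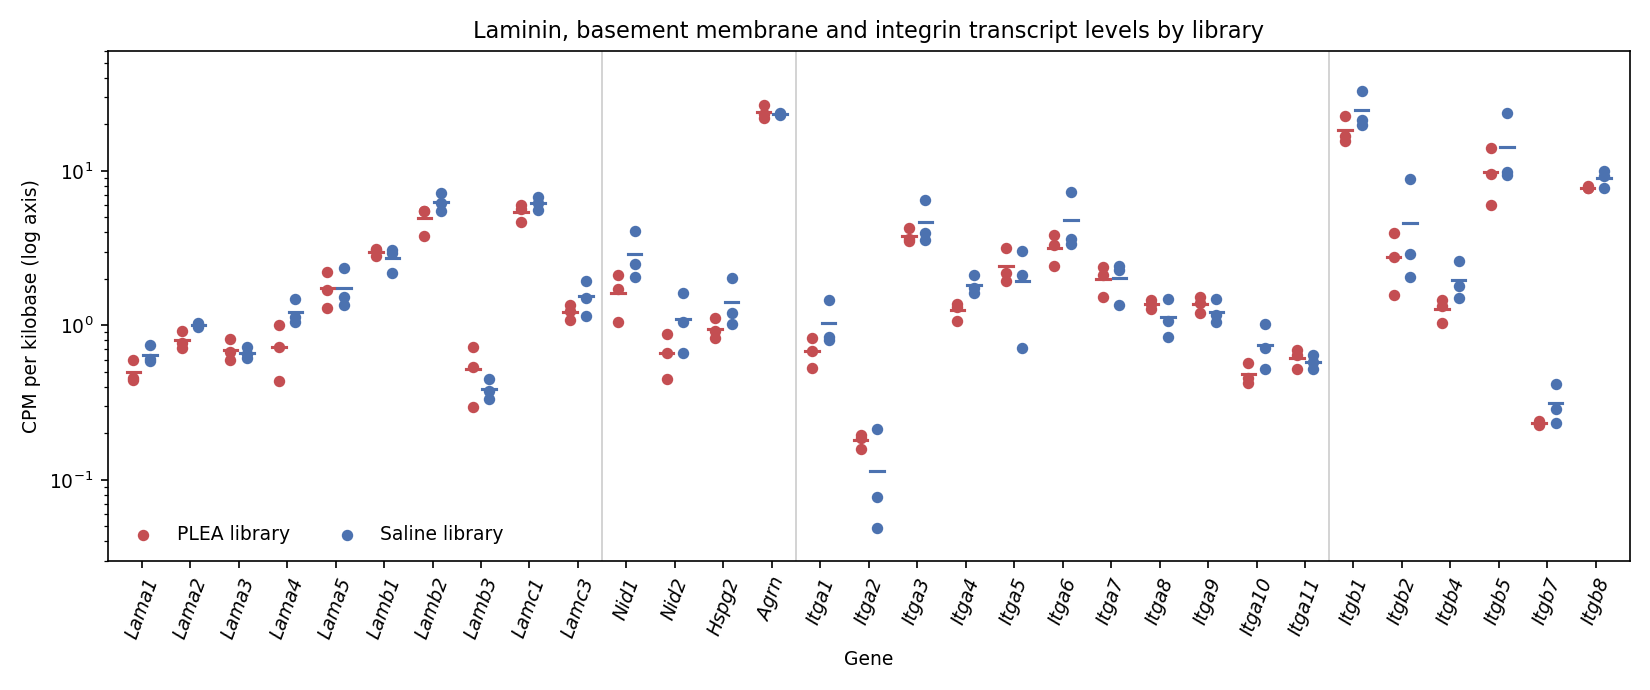
Level of 31 of the 32 tested members (x axis) in CPM per kilobase on a log axis, with a red point for each PLEA library, a blue point for each saline library and a bar at each group mean. Agrn and Itgb1 stand at the top, Itga2 and Itgb7 at the foot, and the groups overlap for most genes.

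Of the 11 laminin genes 7 had negative log2 fold changes and 4 positive ones, with a median of -0.19, or -0.10 without PLEA replicate 2. Among the α chains, Lama4, an endothelial and mural chain, had the lowest fold change. Lama4 was at 12.2, 5.27 and 8.72 CPM in PLEA replicates 1 to 3 and at 17.8, 13.6 and 12.6 CPM in saline replicates 1 to 3. The groups did not overlap, and PLEA replicate 1 lay just under saline replicate 3. Its log2 fold change was -0.75 (SE 0.30, unadjusted p = 0.0347, adjusted p = 0.818 in edgeR), and it was -0.49 without PLEA replicate 2.

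Lama2 encodes the α2 chain, whose loss causes merosin-deficient muscular dystrophy in humans. It was at 12.8, 11.9 and 15.4 CPM in PLEA and at 17.3, 16.9 and 16.1 CPM in saline. The saline libraries were close together and all above PLEA, and the fitted value was -0.33 on the log2 scale (SE 0.15, adjusted p = 0.818).

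Lama1, the α1 chain of pial and early embryonic basement membrane, was at 4.39, 4.31 and 5.76 CPM in PLEA and at 5.87, 5.72 and 7.20 CPM in saline. PLEA replicate 3 lay between the lowest saline libraries, and the log2 fold change was -0.38 (SE 0.23). Lama5, the other endothelial α chain and the most abundant α chain per kilobase, averaged 19.8 ± 5.25 CPM in PLEA and 19.8 ± 6.05 CPM in saline (SD, n = 3 each). Its log2 fold change was 0.00 (SE 0.26), or between -0.21 and 0.28 with 1 library left out, and single libraries ran from 14.8 to 26.7 CPM. Lama3, an epithelial chain, was at 7.49 ± 1.18 CPM in PLEA and 7.15 ± 0.608 CPM in saline (SD, n = 3 each), with a log2 value of 0.07 that was 0.16 without PLEA replicate 2 and -0.06 without PLEA replicate 3.

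Lamb2 and Lamc1, the β2 and γ1 chains found in most vascular laminins, were the most abundant laminin transcripts per kilobase (5.61 and 5.80). Lamb2 was at 33.6, 23.2 and 33.3 CPM in PLEA and at 43.6, 33.5 and 37.7 CPM in saline, with a fold change of -0.35 on the log2 scale (SE 0.18, adjusted p = 0.818). PLEA replicates 1 and 3 stood level with saline replicate 2, and the value was -0.20 without PLEA replicate 2. Lamc1 was at 44.8 ± 5.77 CPM in PLEA and 51.1 ± 4.86 CPM in saline (SD, n = 3 each), with a log2 fold change of -0.19 (SE 0.14). This was -0.09 without PLEA replicate 2 and -0.11 without saline replicate 1.

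Lamb1, the alternative β1 chain, gave 0.13 on the log2 scale (SE 0.15), at 29.7 ± 1.58 CPM in PLEA and 27.1 ± 4.65 CPM in saline (SD, n = 3 each), and near 0 (-0.0058) without saline replicate 2. As a share of the 3 β chain genes per kilobase, Lamb2 made up 62.1%, 49.9% and 62.0% in PLEA and 67.9%, 68.2% and 64.6% in saline. The shares did not overlap, but they were looked at after the values were seen and were not tested. Lamc3 gave a log2 value of -0.32 (SE 0.23), or -0.13 without saline replicate 3. Lamb3, an epithelial chain that pairs with α3, was at 0.42 (SE 0.36) from only 34 to 84 reads per library, and at 0.11 without PLEA replicate 2 or 0.69 without PLEA replicate 1. Summed over the 11 laminin genes, the level was 189, 166 and 199.5 CPM in PLEA and 229, 192 and 209.5 CPM in saline, and PLEA replicate 3 lay above saline replicate 2.

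Of the proteins that link laminin into a sheet, both nidogens and perlecan had their highest library in saline replicate 1. Nid1, which bridges the laminin γ1 chain and type IV collagen, was at 14.6, 7.25 and 11.9 CPM in PLEA and at 28.4, 14.3 and 17.4 CPM in saline. PLEA replicate 1 was just above saline replicate 2, so the groups overlapped. The log2 fold change of Nid1 was -0.83 (SE 0.32, unadjusted p = 0.0300, adjusted p = 0.818 in edgeR), the lowest of any member, and -0.49 without saline replicate 1.

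Nid2, its homologue, was at 3.41, 2.32 and 4.53 CPM in PLEA and at 8.33, 3.41 and 5.42 CPM in saline (log2 fold change -0.74, SE 0.38). Without saline replicate 1 this was -0.36. In the GENCODE M21 annotation 437 of its 5174 exonic bases lie opposite exons of Rtraf, which had 645 to 810 reads per library against 41 to 142 for Nid2, and the strand setting of the counts is not given in the sources used here. Hspg2, encoding perlecan, was at 13.6, 12.2 and 16.4 CPM in PLEA and at 29.7, 15.0 and 17.8 CPM in saline. Its log2 fold change was -0.57 (SE 0.26, adjusted p = 0.818), and -0.22 without saline replicate 1.

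Agrn, the proteoglycan that clusters acetylcholine receptors at the nerve-muscle synapse and that is also made by brain neurons and vessels, did not share this order. Its level was 218, 204 and 249.7 CPM in PLEA and 214, 219 and 217 CPM in saline. The saline libraries were close together within the wider PLEA range, and the log2 fold change was 0.04 (SE 0.12, adjusted p = 0.963), or between -0.04 and 0.11 with 1 library left out. The agrin receptor genes Lrp4 and Musk were at -0.34 (SE 0.24) and 0.34 (SE 0.53) on the log2 scale. With 1 library left out, Lrp4 ran from -0.62 to -0.16, the first without PLEA replicate 1 and the second without PLEA replicate 2 or saline replicate 1, and Musk ran from -0.28 without PLEA replicate 2 to 0.88 without saline replicate 3.

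The stretches just upstream of 3 of these genes are shown, for the 2 members with the lowest unadjusted p among those with an entry in the RefSeq promoter table (Itga4 and Nid1) and for Agrn, the most abundant member, whose window at the start of its annotated transcript is taken from the 2 listed. Each is 250 bases before the start site in build GRCm38.p6, printed 5′ to 3′ on the gene's strand, and capitals mark GC boxes (GGGCGG, either strand) and CCAAT boxes (CCAAT, either strand). Where capitals run on, matches overlap or touch.
Itga4, chr2:79255176-79255425, plus strand: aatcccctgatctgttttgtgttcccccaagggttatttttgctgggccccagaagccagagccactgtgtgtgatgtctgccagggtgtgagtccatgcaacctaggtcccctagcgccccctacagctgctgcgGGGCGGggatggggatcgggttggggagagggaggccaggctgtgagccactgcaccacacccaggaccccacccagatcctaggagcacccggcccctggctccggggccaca
Nid1, chr13:13437352-13437601, plus strand: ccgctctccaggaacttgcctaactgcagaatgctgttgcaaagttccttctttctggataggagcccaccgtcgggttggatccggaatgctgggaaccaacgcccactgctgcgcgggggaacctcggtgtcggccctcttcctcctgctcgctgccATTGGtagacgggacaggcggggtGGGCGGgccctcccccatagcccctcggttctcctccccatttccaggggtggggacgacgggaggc
Agrn, chr4:156197489-156197738, minus strand: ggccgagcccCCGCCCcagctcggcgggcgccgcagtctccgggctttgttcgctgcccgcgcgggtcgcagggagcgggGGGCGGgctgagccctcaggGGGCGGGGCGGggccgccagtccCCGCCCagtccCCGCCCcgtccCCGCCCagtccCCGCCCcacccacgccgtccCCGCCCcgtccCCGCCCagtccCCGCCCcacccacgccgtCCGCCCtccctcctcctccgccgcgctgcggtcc

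The Agrn stretch held 12 GC boxes at 83.6% G and C, against 1 GC box each for Itga4 (64.0%) and Nid1 (64.4%), which also held 1 CCAAT box. Of the 33 genes, 22 were matched in the table, with 26 windows between them. A GC box stood in 12 of the 26, against 32.7% of 32851 windows of the same length, and a CCAAT box in 4, against 33.8%. Neither the TATA box (TATAAA), which 12.4% of all windows hold, nor the AP-1 motif (TGANTCA), which 6.75% hold, was found in any of them on either strand. These are matches of letters and not sites.

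Of the 11 integrin α subunits 6 had negative and 5 positive log2 fold changes, with a median of -0.01 that ran from -0.24 without saline replicate 3 to 0.10 without saline replicate 1. Itga4 had the lowest unadjusted p of any member. It encodes the α4 chain of the leukocyte receptor for VCAM-1 and fibronectin, and was at 18.4, 19.2 and 15.0 CPM in PLEA and at 24.3, 29.5 and 22.6 CPM in saline. All 3 PLEA libraries lay below all 3 saline libraries. The log2 fold change was -0.54 (SE 0.16, unadjusted p = 0.00927, adjusted p = 0.818 in edgeR) and stayed between -0.63 and -0.43 when each library was left out in turn. Itga4 was highest in saline replicate 2 and the summed microglia and macrophage markers in saline replicate 1. All 9 of those markers had negative log2 fold changes, with a median of -0.91. The part of cell content in the Itga4 difference was not tested.

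In GENCODE M21, 1124 of the 13978 exonic bases of Itga4 lie opposite exons of Cerkl. Cerkl had 22, 25 and 29 reads in PLEA and 23, 14 and 13 in saline, against 268 to 511 for Itga4. Both partners of α4 were measured. Itgb7, the gut-homing partner, was at no more than 1.16 CPM with a log2 value of -0.43 (SE 0.39), or -0.17 without saline replicate 2, and Itgb1 is described with the β subunits. Vcam1, its endothelial ligand, had a log2 fold change of -0.23 (SE 0.27), or between -0.53 without PLEA replicate 1 and 0.03 without saline replicate 1. Itga9, the closest relative of α4, was at 10.6 ± 1.22 CPM in PLEA and 9.45 ± 1.74 CPM in saline (SD, n = 3 each), a log2 fold change of 0.16 (SE 0.20). It was 0.05 when saline replicate 2 was left out, 0.08 when PLEA replicate 2 was, and 0.30 when saline replicate 3 was.

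Of the 3 laminin-binding subunits, none had p under 0.05 before adjustment. Itga6, found on endothelium and neural stem cells, was at 35.0, 22.2 and 30.2 CPM in PLEA and at 66.8, 33.4 and 31.0 CPM in saline. Only saline replicate 1 stood clear, and the log2 fold change was -0.59 (SE 0.30), or -0.13 without that library. Itga3 was at 20.6, 20.1 and 24.5 CPM in PLEA and at 20.4, 36.8 and 22.6 CPM in saline. Here saline replicate 2 was the high library, and without it the log2 fold change of -0.29 (SE 0.23) turned to 0.01, while it was -0.44 without saline replicate 1. Itga7, best known from muscle, had a log2 fold change of -0.01 (SE 0.25), or between -0.24 and 0.16 with 1 library left out.

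Of the 4 collagen-binding subunits, Itga1 was at 15.4, 9.86 and 12.7 CPM in PLEA and at 27.0, 15.6 and 15.0 CPM in saline. Its log2 fold change was -0.60 (SE 0.27, adjusted p = 0.818), and -0.27 without saline replicate 1. Itga2 lies 20995 bases from Itga1 on chromosome 13, on the same strand, yet had 20 to 25 reads per library in PLEA and 26, 6 and 9 in saline. Its fold change had the opposite sign, 0.66 (SE 0.53), and was 1.51 without saline replicate 1, 0.29 without saline replicate 2 and 0.44 without saline replicate 3. Itga10 had a log2 fold change of -0.63 (SE 0.31) at 2.51 ± 0.400 CPM in PLEA and 3.89 ± 1.29 CPM in saline (SD, n = 3 each), or -0.36 without saline replicate 2. In GENCODE M21, 33.5% of its exonic bases are shared with the same-strand gene Gm42957, which had at most 2 reads in any library, so its level is uncertain. Itga11 was at 0.09 (SE 0.26), and between -0.0056 and 0.19 with 1 library left out.

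Both RGD-binding α subunits among the members, which recognise a short peptide in fibronectin and related ligands, had positive values. Itgav, outside the members, had a negative one, given below. Itga5, the fibronectin receptor of new vessels, was at 10.7, 9.52 and 15.5 CPM in PLEA and at 14.8, 3.53 and 10.4 CPM in saline. Saline replicate 2 stood far below the rest, and the log2 fold change of 0.32 (SE 0.45) turned to -0.09 without it, while leaving out PLEA replicate 3 gave 0.08 and saline replicate 1 gave 0.79. Itga8, the nephronectin receptor, was at 10.2, 10.8 and 9.45 CPM in PLEA and at 10.9, 6.18 and 7.82 CPM in saline, a log2 fold change of 0.29 (SE 0.23) that was 0.54 without saline replicate 1 and 0.11 without saline replicate 2. In GENCODE M21, 5.05% of its exonic bases lie opposite exons of E030013I19Rik, which had 13 to 31 reads per library.

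All 6 tested β subunits had negative log2 fold changes. Itgb1 is the common partner of most α subunits listed here. Of the level per kilobase summed over the 7 β subunit members, it supplied 45.8% ± 2.39 in PLEA and 45.7% ± 3.66 in saline (SD, n = 3 each). It was at 92.9, 63.9 and 68.8 CPM in PLEA and at 135.0, 80.4 and 87.8 CPM in saline. PLEA replicate 1 lay above 2 of the saline libraries. The log2 fold change of Itgb1 was -0.43 (SE 0.22, adjusted p = 0.818), and -0.15 without saline replicate 1.

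Itgb4, which pairs with α6 and in the brain is known from arteriolar endothelium, was at 10.2, 7.25 and 9.34 CPM in PLEA and at 12.6, 18.2 and 10.5 CPM in saline. The groups did not overlap, by a narrow margin. Its log2 fold change was -0.62 (SE 0.24, unadjusted p = 0.0329, adjusted p = 0.818 in edgeR), and -0.37 without saline replicate 2. In GENCODE M21, 7.66% of its exonic bases lie opposite exons of B230344G16Rik, which was not analysed here.

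The other abundant β subunits pair with αv. Itgb8, which activates latent TGF-β on astrocytes, was at 88.0, 85.7 and 85.2 CPM in PLEA and at 111, 103 and 85.6 CPM in saline. The PLEA values were close together with the lowest saline library among them, for a log2 fold change of -0.21 (SE 0.12). This was -0.12 without saline replicate 1 and -0.32 without saline replicate 3. Itgb5, a vitronectin receptor chain, was at 49.9, 21.5 and 33.8 CPM in PLEA and at 84.8, 35.2 and 33.3 CPM in saline. The log2 fold change of -0.54 (SE 0.41) became 0.04 without saline replicate 1, and leaving out PLEA replicate 2 gave -0.29 and PLEA replicate 1 gave -0.91.

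Itgb2, the β chain of leukocyte integrins on microglia, macrophages and neutrophils, was at 12.0, 4.82 and 8.50 CPM in PLEA and at 26.9, 6.24 and 8.80 CPM in saline. Saline replicate 1 stood far above the rest, as it did for the αM chain Itgam (13.0, 2.27 and 5.65 CPM in PLEA, 35.2, 8.73 and 8.31 CPM in saline). The log2 fold change of Itgb2 was -0.73 (SE 0.55), or 0.18 without saline replicate 1, -0.45 when PLEA replicate 2 and -1.09 when PLEA replicate 1 was left out. Microglia and macrophage markers, given above, and the neutrophil marker sum (8.5, 3.0 and 5.93 CPM in PLEA, 23.2, 6.94 and 16.5 CPM in saline) were highest in the same library. That sum was mostly Csf3r, at 8.15, 2.95 and 5.76 CPM in PLEA and 22.3, 6.76 and 7.69 CPM in saline. Every other neutrophil marker averaged under 1 CPM, and only in saline replicate 3 did they exceed Csf3r together. The part of these cells in the Itgb2 difference was not tested.

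Genes outside the members that work with them were read from lists of related genes. Over all tested genes, 51.0% had a negative log2 fold change. Those with p under 0.05 before adjustment and a negative value made up 3.58%. Of 8 collagen chain genes of basement membrane, 7 had negative values, with a median log2 fold change of -0.37 (-0.15 without saline replicate 1), and 1, Col4a5, had p under 0.05 before adjustment (-0.70, SE 0.25). Col4a1 and Col4a2, the main vascular chains, were at -0.33 (SE 0.33) and -0.26 (SE 0.18). Without saline replicate 1 these were 0.21 and -0.03, and without saline replicate 2 Col4a1 was at -0.62. Of 13 tested further basement membrane genes, 9 were negative and 4 had p under 0.05 before adjustment: Smoc1 (-0.74, SE 0.24), the dystroglycan ligand Egflam (-0.92, SE 0.32), the α8 ligand Npnt (-0.83, SE 0.31) and Sparc (-0.67, SE 0.28). Without saline replicate 2, Egflam was at -0.59, Npnt at -0.42 and Sparc at -0.32. The median over the 13 was -0.03, or -0.24 without saline replicate 2.

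Dystroglycan (Dag1), the main laminin receptor of astrocyte endfeet, was at 122, 100.0 and 117 CPM in PLEA and 113, 118 and 131 CPM in saline, a log2 fold change of -0.10 (SE 0.12) that ran from -0.16 without PLEA replicate 1 to -0.02 without PLEA replicate 2. In the same list of 11, utrophin (Utrn), which links dystroglycan to actin, was at -0.44 (SE 0.14), and the list's median was -0.19. PLEA lay wholly below saline for 4 of the 11, Utrn among them, against 5.54% of all tested genes. Among 17 tested integrin activators and adaptors none had p under 0.05 before adjustment, against 3.58% lower and 2.28% higher of all tested genes. Their median was -0.15, or 0.01 without saline replicate 1. The kindlin genes Fermt2 and Fermt3 were at -0.28 (SE 0.16) and -0.74 (SE 0.53). Without saline replicate 1 these were -0.15 and 0.04, and without PLEA replicate 2 they were -0.16 and -0.41.

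Other integrin ligands had a median of -0.38 over 15 tested genes, or 0.03 without saline replicate 1. Of the 15, 5 had p under 0.05 before adjustment with a negative value, against 3.58% of all tested genes. Fibronectin (Fn1), the ligand of the α4 and α5 integrins, was at 88.3, 63.1 and 86.9 CPM in PLEA and at 245, 102 and 119 CPM in saline. Those groups did not overlap, and its log2 fold change was -0.97 (SE 0.32, adjusted p = 0.818), or -0.47 without saline replicate 1. Thbs1, Thbs2 and Cdh1 were at -1.65 (SE 0.66), -0.48 (SE 0.20) and -1.42 (SE 0.51). For Thbs1 saline replicate 1 held 29.7 CPM, and its log2 value was -0.42 without that library, and Cdh1 was at -2.15 without PLEA replicate 1. Of the integrin α subunits outside the members, Itgav, the partner of Itgb5 and Itgb8, was at -0.23 (SE 0.16), Itgam at -1.32 (SE 0.71), Itgal at -1.15 (SE 0.49) from at most 1.53 CPM, and Itga2b, the platelet chain, at 0.46 (SE 0.38). With 1 library left out, Itgam ran from -2.16 (PLEA replicate 1) to -0.28 (saline replicate 1) and Itgav from -0.41 (PLEA replicate 1) to -0.11 (PLEA replicate 2). Itga2b was at 0.16 without PLEA replicate 2, 0.19 without saline replicate 2 and 0.82 without saline replicate 1.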

How the data were processed

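Gene-level read counts of the 6 libraries, not normalized, were deposited by the authors with gene lengths and coordinates. No source used here gives the aligner, the counter or whether strand was used. GRCm38 and mm10 are the builds in the submitters' processing notes, but 0 of the 33 genes had the same coordinates in GENCODE M21 (GRCm38), so no deposited coordinates are printed. The distance given between Itga2 and Itga1 was taken from the deposited coordinates. Groups follow the sample titles, with 3 libraries each.

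The test was edgeR's quasi-likelihood fit (version 4.0.16, R 4.3.3) with group as its only term, after filterByExpr and TMM scaling, with Benjamini-Hochberg adjustment over 17584 genes and a threshold of 0.05. SE is the log2 fold change over the square root of F. CPM is the count scaled by library total and TMM factor, and overlap of groups was read on log2 CPM (prior count 2). Lists other than the members were named by up to 4 genes of lowest p, plus Col4a1, Dag1 and Vcam1, chosen after their values were seen. No test was run on sums over members. Counts, medians and sums cover all tested members, of which 1 is not reported here on its own. The members and lists were chosen with earlier results of these data known.

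Alternatives were DESeq2 1.42.0, limma 3.58.1 (voom), RLE and upper-quartile factors, other filters, protein-coding genes, a replicate block and leaving out libraries. On simulated data with these means, dispersions and 17584 genes, edgeR recovered 4.76% of genes changed 1.5-fold, 36.2% changed 2-fold and 83.8% changed 4-fold. The changed genes left out those of the lowest mean level, so these shares do not cover them. Each gene was drawn independently, so shifts shared by many genes of a library were not simulated. No pair of libraries agreed within sampling noise (chi-square per degree of freedom of 13.1 or more).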

Additional observations from a re-analysis of the deposited data

How the results depend on the processing

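Over all genes, edgeR called 0 higher and 0 lower, DESeq2 called 4 and 37, and edgeR without a filter called 7 and 31. With 1 library left out, 0 to 0 were higher and 0 to 1 lower. Without saline replicates 1 and 2 together, where the lone saline library is assumed to vary like the PLEA ones, the counts were 0 and 2. Of the members none was called under any alternative. Members with p under 0.05 before adjustment and a negative value numbered 4, against 10 without a filter (3.95% of all genes), 1 to 9 with 1 library left out and 1 without saline replicates 1 and 2 (1.39%). Those with a positive value numbered 0, or 0 to 2 with 1 library left out, the 2 being Itga2 and Itga8 without saline replicate 1. Members whose groups did not overlap numbered 4 lower and 0 higher, against 4 to 10 lower and 0 to 2 higher with 1 library left out (8.09% to 13.7% and 7.74% to 14.8% of all genes), and 12 (21.8%) and 3 (22.4%) without saline replicates 1 and 2, where 1 saline library is set against 3 and non-overlap is easier by construction. The median over members, -0.33, ran from -0.38 to -0.14 with 1 library left out and was -0.087 without saline replicates 1 and 2.

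The difference in summed nidogen, perlecan and agrin level was -11.2 CPM and ran from -26.3 to 2.26 CPM with 1 library left out. Most of that sum was Agrn, at a mean of 223.6 CPM in PLEA and 217.0 CPM in saline. Without Agrn the sum was 28.7 ± 6.08 CPM in PLEA and 46.6 ± 17.6 CPM in saline (SD), a difference of -17.9 CPM. Signs turned near 0: Itga7 was at 0.00054 with upper-quartile factors, 0.0058 with limma voom and 0.0035 over protein-coding genes, and Lama5 at -0.0072 with DESeq2, -0.0072 with RLE factors and -0.021 without a filter. With 1 library left out, ranges crossed 0 for Agrn (-0.043 to 0.11), Itga11 (-0.0056 to 0.19), Itga3 (-0.44 to 0.013), Itga5 (-0.088 to 0.79), Itga7 (-0.24 to 0.16), Itgb2 (-1.09 to 0.18), Itgb5 (-0.91 to 0.043), Lama3 (-0.062 to 0.16), Lama5 (-0.21 to 0.28) and Lamb1 (-0.0058 to 0.21). Without saline replicates 1 and 2 the values were -0.056 for Itga11, 0.57 for Itga7, -0.10 for Itga9, 0.087 for Itgb5, 0.022 for Itgb8, -0.052 for Lama3 and -0.020 for Lamb1. Causes were not tested beyond the libraries named.

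Same-numbered libraries deviated together with r of 0.37, 0.17 and -0.02, and not every library correlated best with its own number, so the numbers were not taken to pair them. With the number as a replicate block, 11 members had p under 0.05 before adjustment and a negative value (5.07% of all genes), 0 were called, and Itga7 was at 0.0048. Genes under 3 CPM, such as Itga2 and Itgb7, rest on few reads.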
